A study of Mus musculus with 9 samples.

Results

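The clock output factors are the transcription factors that stand between the circadian clock and the genes it drives. The 6 genes considered here, Dbp, Tef, Hlf, Nfil3, Bhlhe40 and Bhlhe41, were represented by every probe set annotated to them, 11 of the 45037 non-control probe sets on the array. Dbp had 2 probe sets, Tef 3, Hlf 2, Nfil3 1, Bhlhe40 1 and Bhlhe41 2. The genes were taken as a family around Dbp, which had drawn attention through its high values in castrated mice, so the comparisons with castration are described below without a test and only testosterone against sham is tested.

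The tissue was gastrocnemius, the large muscle of the calf, taken from young adult CD-1 mice (outbred) 14 days after the operation. Testosterone mice were castrated and given a 2.5 mg testosterone pellet with release over 60 days, castration mice were castrated and received placebo, and sham mice received placebo after a sham operation. With 3 Affymetrix arrays per group and the RNA of 3 animals pooled on each, an SD is the spread between pools. The animals were not fasted, and the sources used here state no time of day for tissue collection. Values are log2 expression per probe set, and no level is compared between probe sets.

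DBP, TEF and HLF form the PAR bZIP family of basic leucine zipper proteins, which activate genes through a DNA element called the D-box. NFIL3, also known as E4BP4, binds the same element and represses. Dbp transcription is driven by the CLOCK and BMAL1 activator pair through E-box elements, and in rodents its RNA has a strong daily rhythm in liver, muscle and other tissues. BHLHE40 and BHLHE41, also known as DEC1 and DEC2, bind E-boxes and oppose that activator pair.

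The start-site windows of Dbp, the member with the largest differences, and of its relative Tef are shown because the E-box letters are in the Tef windows and not in that of Dbp. They span 250 bases before to 50 after a RefSeq transcription start on GRCm38.p6, 5′ to 3′ on the plus strand, and capitals mark the E-box letters CACGTG. The Dbp window lies at chr7:45704997-45705296, and the Tef windows at chr15:81802423-81802722 and chr15:81811164-81811463.
Dbp: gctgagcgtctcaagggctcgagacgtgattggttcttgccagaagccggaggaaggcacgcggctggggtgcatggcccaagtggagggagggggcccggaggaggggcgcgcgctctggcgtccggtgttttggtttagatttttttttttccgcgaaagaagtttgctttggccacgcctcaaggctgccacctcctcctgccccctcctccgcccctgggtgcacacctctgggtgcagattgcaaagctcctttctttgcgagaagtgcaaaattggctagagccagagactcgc
Tef, first start: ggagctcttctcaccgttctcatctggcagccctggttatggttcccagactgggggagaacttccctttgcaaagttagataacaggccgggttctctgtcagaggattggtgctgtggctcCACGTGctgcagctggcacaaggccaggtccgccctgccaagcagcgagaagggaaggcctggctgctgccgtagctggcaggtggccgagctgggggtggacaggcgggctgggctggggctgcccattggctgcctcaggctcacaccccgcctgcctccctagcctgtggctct
Tef, second start: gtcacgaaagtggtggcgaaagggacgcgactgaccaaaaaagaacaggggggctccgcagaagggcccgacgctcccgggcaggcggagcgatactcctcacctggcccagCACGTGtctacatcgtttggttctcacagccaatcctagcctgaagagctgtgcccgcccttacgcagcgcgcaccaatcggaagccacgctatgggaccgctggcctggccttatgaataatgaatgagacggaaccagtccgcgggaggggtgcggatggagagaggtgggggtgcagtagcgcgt

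RefSeq windows were found for 5 of the 6 genes, 6 windows in all, and Bhlhe40 is named only. Both Tef windows held 1 CACGTG, and so did the window of Bhlhe41, which makes 3 of 6 windows against 7.15% of all 32851 windows of this length. The Dbp, Hlf and Nfil3 windows did not hold these letters. The D-box letters TTANGTAA were in 0 of the 6 windows and in 2.32% of all windows. AGGTCA, which retinoid-related orphan receptors and REV-ERB bind, was found in the Nfil3 window only among the 6, and in 16.3% of all windows. The palindromic element shared by the androgen and glucocorticoid receptors was in 0 of the 6 and in 0.00913% of all windows. Its single arm AGAACA was in the second Tef window and in 19% of all windows. Both strands were searched, the single arm is contained in the palindrome, and a match describes the letters in this window and nothing beyond it.

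Of the 9 arrays, sham 2 and testosterone 2 were least like the others, with mean correlations to the other arrays of 0.972 and 0.981, against 0.989 to 0.991 for the remaining ones. Muscle fibre markers were near the top of the array everywhere, with a mean log2 level of the 10 measured markers between 13.4 and 13.5 on every array. Markers of other cells varied more. For several named differences, the value without sham 2 or testosterone 2 is given beside them or with the alternative settings. Small differences given without such a value can also depend on these arrays.

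Dbp was high in castrated muscle, and the testosterone and sham arrays overlapped. Its brighter probe set read 7.91, 8.26 and 7.83 on the testosterone arrays, 8.97, 9.08 and 8.85 on the castration arrays, and 7.72, 7.90 and 7.93 on the sham arrays. Its other probe set read 7.12, 6.58 and 6.84 with testosterone, 8.24, 7.99 and 8.07 after castration, and 7.07, 7.17 and 6.67 in sham. On both, the 3 castration arrays lay above all 6 others, with a gap wider than the spread within any group. This held for 2 of the 11 probe sets, both of Dbp, and for 1.36% of all probe sets.

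The mean of the brighter set was 7.999 ± 0.23 (SD, n = 3) with testosterone, 8.97 ± 0.11 after castration and 7.85 ± 0.11 in sham. Castration exceeded sham by log2 1.11 (SE 0.12), a 2.17-fold difference, and by 1.13 (SE 0.17), or 2.19-fold, on the other set. Testosterone lay below castration by log2 differences of −0.97 (SE 0.12) and −1.25 (SE 0.17) on the 2 sets. No probe set of the array passed the adjusted limma test in either comparison (0% of 45037). Since Dbp was chosen from these contrasts, and since they share the castration arrays, the values are a description. They were larger in size than those of 99.9% of probe sets for castration against sham on either set, and than 99.7% and 99.9% for testosterone against castration. Without sham 2 and testosterone 2 the differences of the brighter set were 1.14 and −1.10.

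With all 9 arrays, the sign of Dbp between testosterone and sham differed between its probe sets. The brighter set was 0.15 (SE 0.12) higher with testosterone and the other set was −0.12 (SE 0.17), both within the spread of their arrays. Without testosterone 2 the first value was 0.02. The arrays also ranked differently. Testosterone 2 was the highest of its group on the brighter set and the lowest of all 9 arrays on the other. The opposite signs rested on that array. On the other set the remaining testosterone arrays, at 7.12 and 6.84, lay among the sham arrays at 6.67 to 7.17. In the RefSeq annotation Dbp overlaps Sphk2, a sphingosine kinase gene. The brighter Sphk2 probe set differed by 0.01 (SE 0.09) between castration and sham and by 0.13 (SE 0.09) between testosterone and castration, and the dimmer one by 0.20 (SE 0.13) and −0.30 (SE 0.13).

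**Figure D1:**
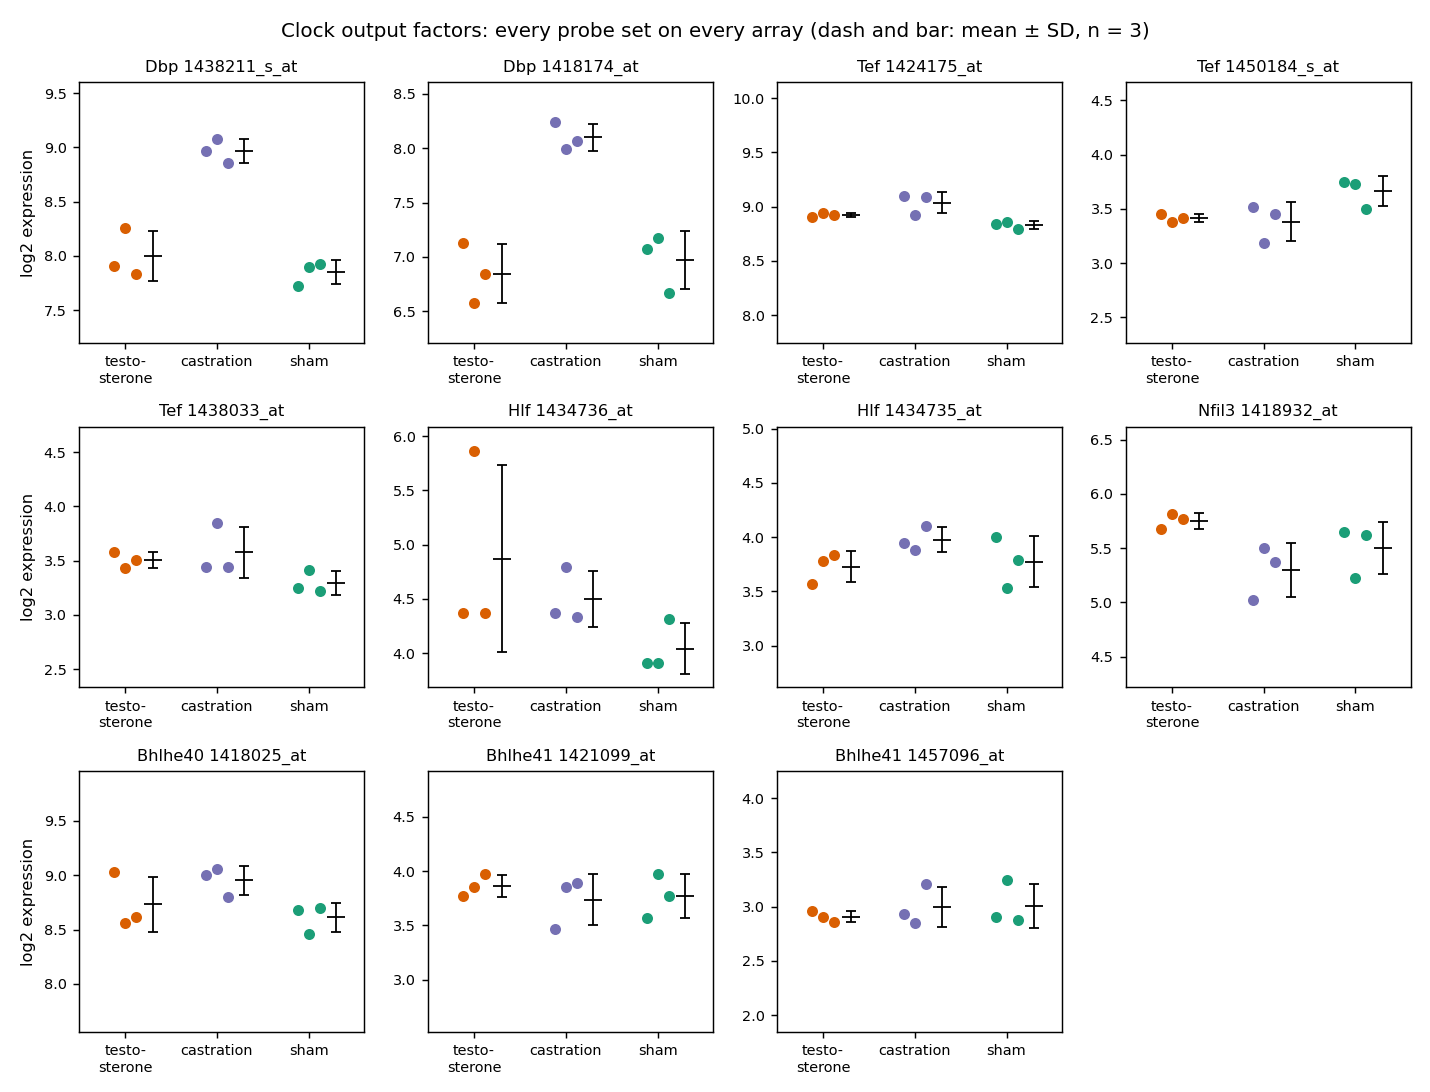
Log2 expression of all 11 probe sets on the 9 arrays, by group (testosterone, castration, sham), each panel spanning the same range in log2 units and the sets of a gene running from brightest to dimmest. Points are arrays, and the dash and bar give the mean and SD of 3 arrays. On both Dbp panels the castration arrays (8.85 to 9.08 and 7.99 to 8.24) lie above all others.

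The other PAR bZIP genes had smaller differences from the castration group. Tef was bright on 1 probe set, which read 8.90, 8.94 and 8.92 with testosterone, 9.10, 8.92 and 9.09 after castration, and 8.84, 8.86 and 8.79 in sham. The castration and sham arrays did not overlap, and the testosterone arrays lay between them, level with castration 2. The group means were 8.92 ± 0.02 (SD, n = 3), 9.04 ± 0.10 and 8.83 ± 0.03. Castration minus sham was 0.20 (SE 0.07), a 1.15-fold difference, and testosterone minus castration was −0.11 (SE 0.07).

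The remaining Tef probe sets were dim, with mean levels at the 63.45th and 62.57th percentile of all probe sets. On the dimmest set the castration arrays (3.44 to 3.85) lay above the sham arrays (3.22 to 3.42), a difference of 0.28 (SE 0.12). On the middle set the sign was opposite, −0.28 (SE 0.11), with castration arrays at 3.18 to 3.52 and sham arrays at 3.50 to 3.75. The 3 probe sets of Tef thus do not give 1 direction, although the brightest and 1 dim set share it. Averaged over all its probe sets, Tef differed by 0.07 between castration and sham.

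Hlf was measured at low levels. Its brighter probe set read 4.37, 5.86 and 4.37 with testosterone, 4.37, 4.80 and 4.33 after castration, and 3.91, 3.91 and 4.31 in sham. Testosterone 2 stood over 1 log2 unit above every other array, and the remaining testosterone arrays lay among the castration arrays. Castration exceeded sham by 0.46 (SE 0.37), with the castration arrays just above the highest sham array. Testosterone minus castration was 0.37 (SE 0.37) with all arrays, −0.13 without testosterone 2, 0.61 without testosterone 1 and 0.62 without testosterone 3. The dimmer set had castration arrays at 3.88 to 4.10, above the testosterone arrays at 3.57 to 3.83 and overlapping the sham arrays at 3.53 to 4.00.

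Testosterone 2 also had the highest marker levels of blood and fat cells. Its mean log2 deviation over the 9 measured macrophage and lymphocyte markers was 1.45, against −0.36 and −0.31 on the other testosterone arrays, −0.30 to −0.19 after castration and −0.27 to 0.48 in sham. Over the 6 measured adipocyte markers it was 1.31. In bulk muscle, fewer cells of a type and less RNA per cell cannot be told apart, and the part of these cells in the Hlf value was not tested.

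Nfil3, the repressor at D-boxes, was higher with testosterone than after castration. It read 5.67, 5.81 and 5.76 with testosterone, 5.02, 5.50 and 5.37 after castration, and 5.65, 5.22 and 5.62 in sham. All testosterone arrays lay above all castration arrays, whereas the castration and sham arrays overlapped, with sham 2 below castration 2 and castration 3. The means were 5.75 ± 0.07 (SD, n = 3), 5.30 ± 0.25 and 5.50 ± 0.24. Testosterone exceeded castration by 0.45 (SE 0.15), 1.37-fold, and castration minus sham was −0.20 (SE 0.15). Without sham 2 that difference was −0.34, and without castration 1 it was −0.06, while leaving out sham 1 gave −0.12 and leaving out castration 2 gave −0.30.

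Of the E-box repressors, Bhlhe40 was bright and Bhlhe41 dim. Bhlhe40 read 9.03, 8.56 and 8.61 with testosterone, 9.00, 9.06 and 8.80 after castration, and 8.68, 8.46 and 8.70 in sham. The castration arrays lay above the sham arrays by a mean of 0.34 (SE 0.14), 1.27-fold, and testosterone 1 reached the castration level while the other testosterone arrays lay among the sham values. Testosterone minus castration was −0.22 (SE 0.14) with all arrays, −0.14 without testosterone 2 and −0.37 without testosterone 1. A long noncoding gene, 0610040F04Rik, overlaps Bhlhe40 in the annotation, and its 1 probe set differed by −0.02 (SE 0.16) between castration and sham. Bhlhe41 ranged over 3.47 to 3.97 on 1 probe set and 2.85 to 3.24 on the other, with all groups overlapping on both. Its castration minus sham differences were −0.03 (SE 0.14) and −0.01 (SE 0.12). The first of these ran from −0.13 without sham 1 to 0.10 without castration 1.

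**Figure D2:**
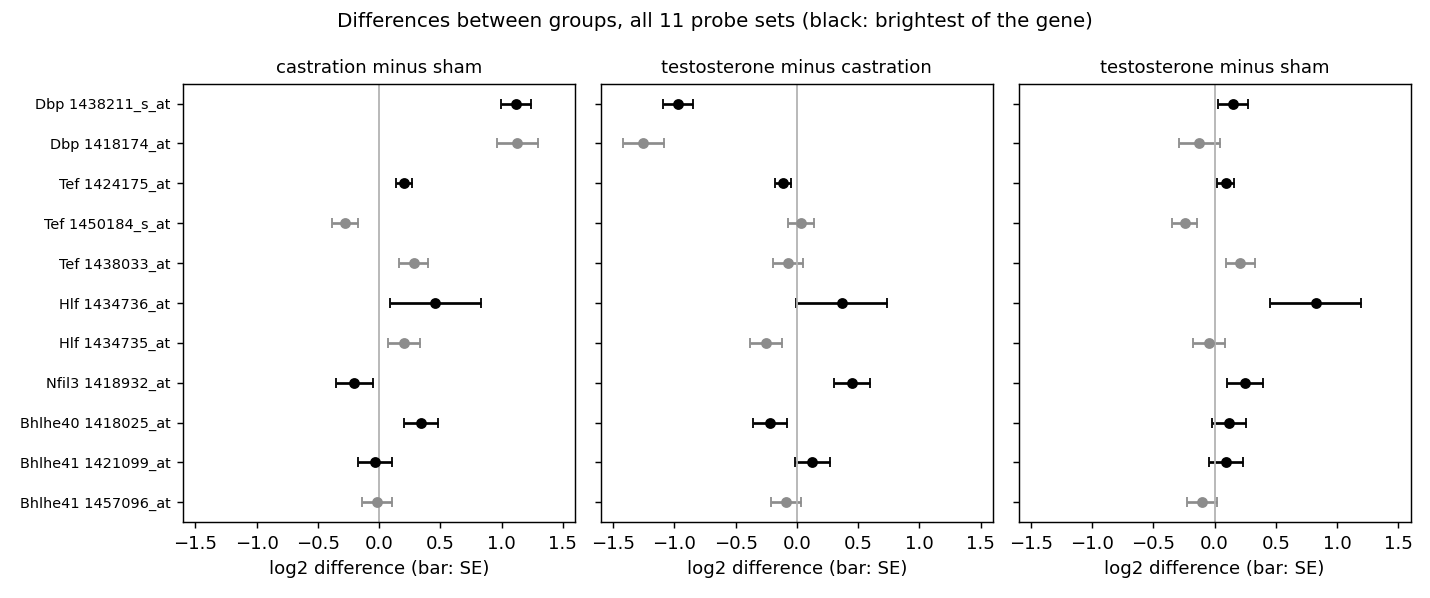
Log2 differences (points) with SE (bars) of the 11 probe sets in the 3 comparisons, with the brightest probe set of a gene in black. The 2 Dbp sets sit near 1.1 for castration minus sham and at −0.97 and −1.25 for testosterone minus castration, and the other sets lie within 0.5 of 0 in these comparisons.

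Over all members, the castration arrays did not overlap the sham arrays for 6 of 11 probe sets, all 6 higher after castration, where 7.97% of all probe sets did not overlap and 4.26% were higher. For testosterone against castration this was 4 of 11, 1 higher and 3 lower, where 7.94% of all probe sets did not overlap, 3.85% higher and 4.09% lower. Nothing is read from these counts, since both contrasts had been seen when the genes were chosen. The median log2 difference of the 11 probe sets was 0.20 for castration minus sham and −0.09 for testosterone minus castration, against 0.00 and −0.00 over all probe sets. By gene, with the brightest probe set each, 4 of the 6 genes (Dbp, Tef, Hlf and Bhlhe40) were separate for castration against sham and 2 (Dbp and Nfil3) for testosterone against castration. Without sham 2 and testosterone 2 these counts were 5 and 2.

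Testosterone against sham sets castrated mice with the hormone replaced against intact ones, and it was tested by limma for the 9 probe sets other than those of Dbp. None of the 9 passed an adjusted p of 0.05, where 0% of all 45037 probe sets passed, and the adjusted p ran from 0.797 to 0.938. At an unadjusted p under 0.05 there was 1 of 9, the middle Tef set at −0.24 (SE 0.11), where 4.75% of all probe sets were past it. The brightest Tef set was 0.09 higher with testosterone, with a 95% interval of −0.06 to 0.25. Nfil3 was 0.25 higher (95% interval −0.09 to 0.59), or 0.11 without sham 2. The interval was −0.19 to 0.43 for Bhlhe40 and −0.23 to 0.41 for the brighter Bhlhe41 set. These intervals still allow differences larger than the one Tef showed between castration and sham.

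Hlf had the largest testosterone minus sham difference of the members, 0.83 (SE 0.37) on the brighter set, with an adjusted p of 0.797 from limma. Without testosterone 2 it was 0.33, and without sham 2 as well it was 0.26. Averaged over both sets it was 0.39. On the dimmer Hlf set the difference was −0.04 (SE 0.13). Arrays of the 2 groups did not overlap for 5 of 11 probe sets, 4 higher and 1 lower with testosterone, where 6.82% of all probe sets did not overlap, 3.11% higher and 3.71% lower. Of these 5, 3 were Tef probe sets that differed in sign among themselves, and the others were the brighter Hlf set and Nfil3. The Tef sets read the same gene, so they are not independent of each other.

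The core clock genes around the members were read from lists written with earlier results of these data known, with the brightest probe set per gene and the limma fit over all probe sets. Of 8 measured clock repressors, 0 passed the adjusted test in any comparison. For castration against sham, 4 were higher at an unadjusted p under 0.05 (Per1, Per3, Nr1d2 and Ciart) and 0 lower, where 3.32% of genes were higher at that level. The median of the list was 0.37 with all arrays, against 0.01 over all genes. It depended in part on sham 2. Cry2, near the middle of the list at 0.34 (SE 0.22), read 5.40 on sham 2 and 6.24 and 6.36 on the other sham arrays. After castration it read 6.42, 6.40 and 6.21. Of 5 measured activators, 1 was lower at an unadjusted p under 0.05, which was Arntl, the gene of BMAL1, where 5.32% of genes were past it in either direction. The median of the activators was −0.19. Among them Rorb and Npas2 were dim, at the 29.4th and 41.9th percentile of all probe sets by mean level. This median also includes sham 2, the lowest of the sham arrays for Clock and the highest for Rorb.

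Per3, a period gene and repressor of the clock, was the list gene with the smallest p. It read 4.46, 4.15 and 4.37 with testosterone, 5.33, 5.28 and 5.16 after castration, and 4.43, 4.18 and 4.49 in sham. Castration lay apart from both other groups, as it did for Dbp. Castration minus sham was 0.89 (SE 0.11, adjusted p = 0.125 by limma) and testosterone minus castration −0.93 (SE 0.11, adjusted p = 0.107 by limma). The second comparison passed without sham 2, at an adjusted p of 0.0326 by limma, and both passed without sham 2 and testosterone 2 (0.0498 and 0.0386 by limma). For castration against sham, 3 of the 6 Per3 probe sets shared the sign, and for testosterone against castration all 6 did. Averaged over its probe sets the differences were smaller, at 0.16 and −0.20.

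Arntl read 6.50, 5.03 and 5.82 with testosterone, 4.90, 5.07 and 5.09 after castration, and 6.06, 5.72 and 6.03 in sham. The castration arrays lay below every sham array, and testosterone 2 lay among them although Dbp on that array was far below its castration level. Castration minus sham was −0.92 (SE 0.31, adjusted p = 0.883 by limma). Testosterone minus castration was 0.76 (SE 0.31), 1.14 without testosterone 2 and 0.40 without testosterone 1. Averaged over the 2 Arntl probe sets the differences were −0.47 and 0.34, and 1 of the 2 sets shared the sign of the second.

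Per1, another period gene, was 0.93 (SE 0.31) higher after castration than in sham and ran from 4.63 to 5.84 within the castration group. Without castration 1 its difference was 0.63. Nr1d2, which encodes REV-ERB beta, differed by 0.49 (SE 0.19) between castration and sham, or 0.29 without sham 2, and Ciart, a repressor of CLOCK and BMAL1, by 0.40 (SE 0.13). Nr1d1, which encodes REV-ERB alpha, was −0.13 (SE 0.08). Between testosterone and castration, Per1 differed by −0.71 (SE 0.31), or −0.40 without castration 1. Nr1d2 differed by −0.36 (SE 0.19), or −0.19 without testosterone 2, and Ciart by −0.42 (SE 0.13). None of these passed the adjusted limma test.

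**Figure D3:**
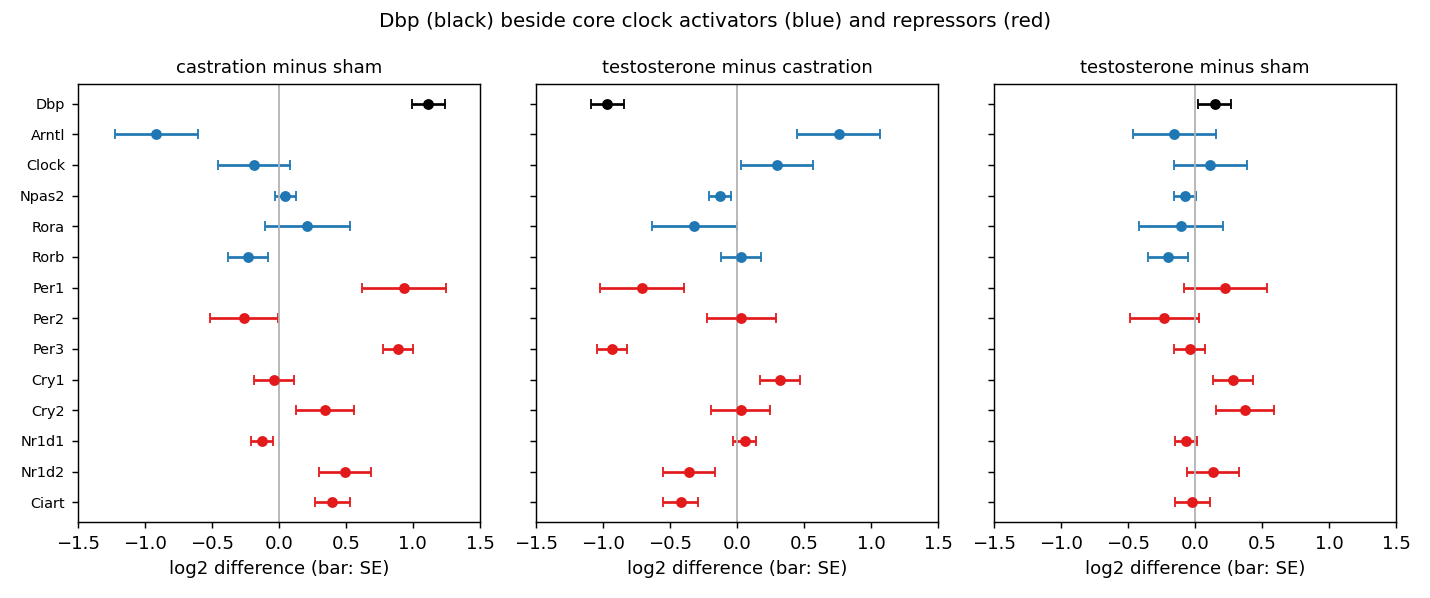
Log2 differences (points) with SE (bars) for the brightest probe set of Dbp (black), of 5 clock activators (blue) and of 8 repressors (red) in the 3 comparisons. For castration minus sham, Dbp (1.11), Per1 (0.93) and Per3 (0.89) lie to the right and Arntl (−0.92) to the left, while all 14 points lie within 0.4 of 0 for testosterone minus sham.

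Genes reported elsewhere as targets of the PAR bZIP factors or NFIL3, in liver, kidney, brain or pituitary, showed no shared direction. Cyp3a11, Upp2, Ces2a, Cyp7a1, Tshb and Fgf21 were dim in muscle, between the 20.6th and 49.4th percentile of all probe sets by mean level. Counts of signs therefore cannot show whether the targets followed Dbp. Of 11 measured targets, 4 were higher and 7 lower after castration than in sham, with a median of −0.03 against 0.01 over all genes and 0 passing the adjusted limma test. At an unadjusted p under 0.05 there was 1, Alas1, the first enzyme of heme synthesis, where 5.32% of genes were past it. Alas1 read 9.00, 8.69 and 9.22 with testosterone, 8.57, 8.50 and 8.51 after castration, and 9.26, 8.83 and 9.02 in sham. The castration arrays lay below all others. Castration minus sham was −0.51 (SE 0.15) and testosterone minus castration was 0.45 (SE 0.15). Between testosterone and sham 1 of the 11, the dim Cyp3a11, was past an unadjusted p of 0.05 at 0.18 (SE 0.08).

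Of 7 measured genes of clock protein turnover, 5 were higher and 2 lower after castration than in sham, with a median of 0.00. Csnk1d, a kinase of the period proteins, was −0.44 (SE 0.17) after castration against sham, or −0.29 without sham 2, and 2 of its 5 probe sets shared that sign. Btrc, a ubiquitin ligase subunit, was −0.42 (SE 0.18) with testosterone against castration, or −0.22 without testosterone 1, −0.27 without castration 1 and −0.10 averaged over its probe sets. Neither passed the adjusted limma test. Over all 51 measured genes of the 7 lists, 9 were past an unadjusted p of 0.05 for castration against sham, 7 for testosterone against castration and 2 for testosterone against sham, where 5.32%, 3.95% and 5.05% of genes were. The first count was 3 without castration 1, and the second was 3 without testosterone 3, 4 without castration 1 and 12 without sham 2 and testosterone 2.

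Over the 9 arrays, the genes most like the brighter Dbp set by Pearson correlation, among 2889 genes with a range of at least 1 log2 unit, were Sesn1 (r = 0.96), Myog (0.95), Slc7a2 (0.91), Zfp503 (0.91), Gamt (0.90) and Ky (0.90). The most opposite were Mss51 (−0.97), Spns2 (−0.96), Tmem37 (−0.95), Smox (−0.94), Smtnl2 (−0.94) and Ppp1r3c (−0.93). The arrays fall into 2 sets by Dbp, the castration arrays and the 6 others, so these values mostly describe which genes separate the same sets. Gamt, guanidinoacetate methyltransferase of creatine synthesis, averaged 5.22 ± 0.26 (SD, n = 3) with testosterone, 6.02 ± 0.17 after castration and 5.18 ± 0.32 in sham. Tmem37, a transmembrane protein gene, averaged 8.28 ± 0.18, 7.61 ± 0.24 and 8.38 ± 0.21 in the same groups. Only 3 of the 12 names recurred with Spearman correlation, and 3 without sham 2 and testosterone 2, so the order among such genes is not fixed by these arrays.

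**Figure D4:**
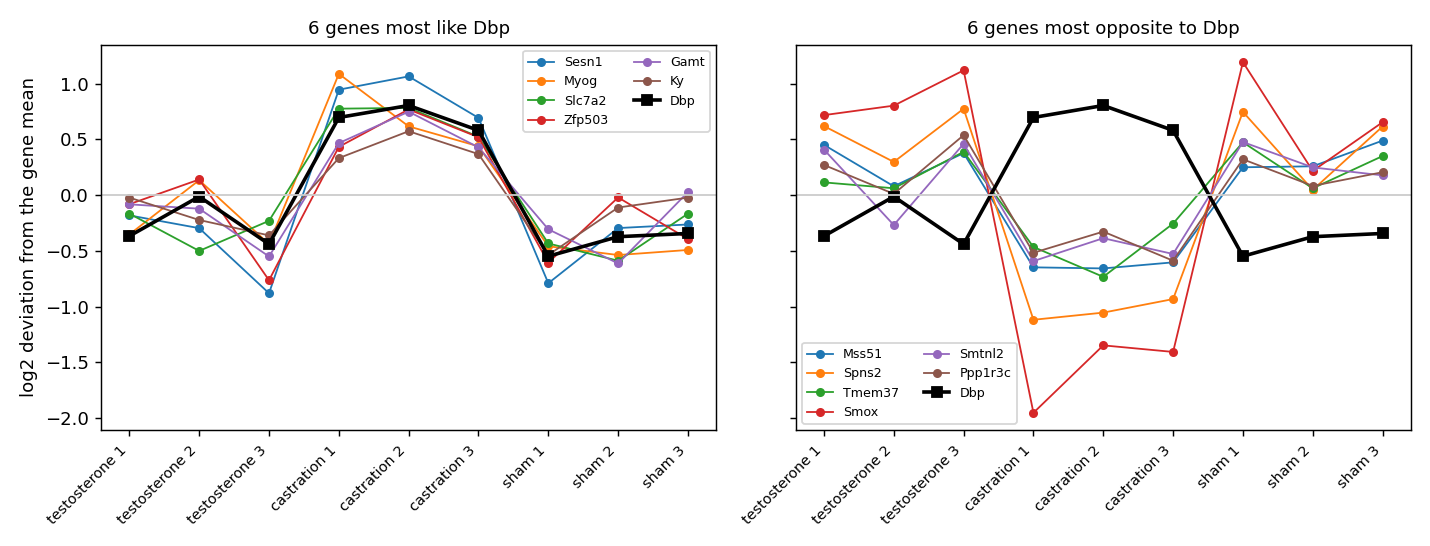
Log2 deviation from each gene's own mean on the 9 arrays for Dbp (black, brighter probe set) and the 6 genes most like it (left, r of 0.90 to 0.96) or most opposite to it (right, r of −0.97 to −0.93). On average the castration arrays are highest on the left and lowest on the right.

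Markers of other cells differed between the castration and sham groups, in part through sham 2. Adipocyte markers were lower after castration than in sham for 6 of 6 measured genes (median −0.79) and endothelial markers higher for 6 of 6 (median 0.39). Without sham 2 these were 6 of 6 (median −0.30) and 5 of 6 (median 0.23). Epidermal markers were lower for 5 of 5, with a median of −0.34 and of −0.17 without sham 2. Macrophage and lymphocyte markers were lower for 8 of 9 (median −0.19), but for 4 of 9 without sham 2 (median 0.02). Fibroblast and matrix markers were higher for 5 of 6 (median 0.28), but for 3 of 6 without sham 2 (median −0.02). With testosterone against castration, adipocyte markers were higher for 6 of 6 (median 1.03). Macrophage and lymphocyte markers were higher for 9 of 9 (median 0.66), and testosterone 2 had the highest score of both lists. The higher macrophage and lymphocyte score with testosterone rested on testosterone 2, at 1.45. The other testosterone arrays scored −0.36 and −0.31, below the castration arrays at −0.30 to −0.19. Endothelial markers were lower for 6 of 6 (median −0.23) and fibroblast and matrix markers for 5 of 6 (median −0.57). Epidermal markers were also lower with testosterone than in sham, for 5 of 5 (median −0.34). The adipocyte score was −0.62 to 1.31 with testosterone, −0.75 to −0.64 after castration and −0.35 to 1.03 in sham. Adipoq, the defining adipocyte marker, was at 5.29 to 5.58 on the castration arrays. It was at 5.45 to 9.21 with testosterone, overlapping castration, and at 6.65 to 9.16 in sham. The endothelial score was −0.31 to 0.10 with testosterone, 0.05 to 0.43 after castration and −0.46 to 0.02 in sham. The part of these cells in the Dbp values was not tested.

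**Figure D5:**
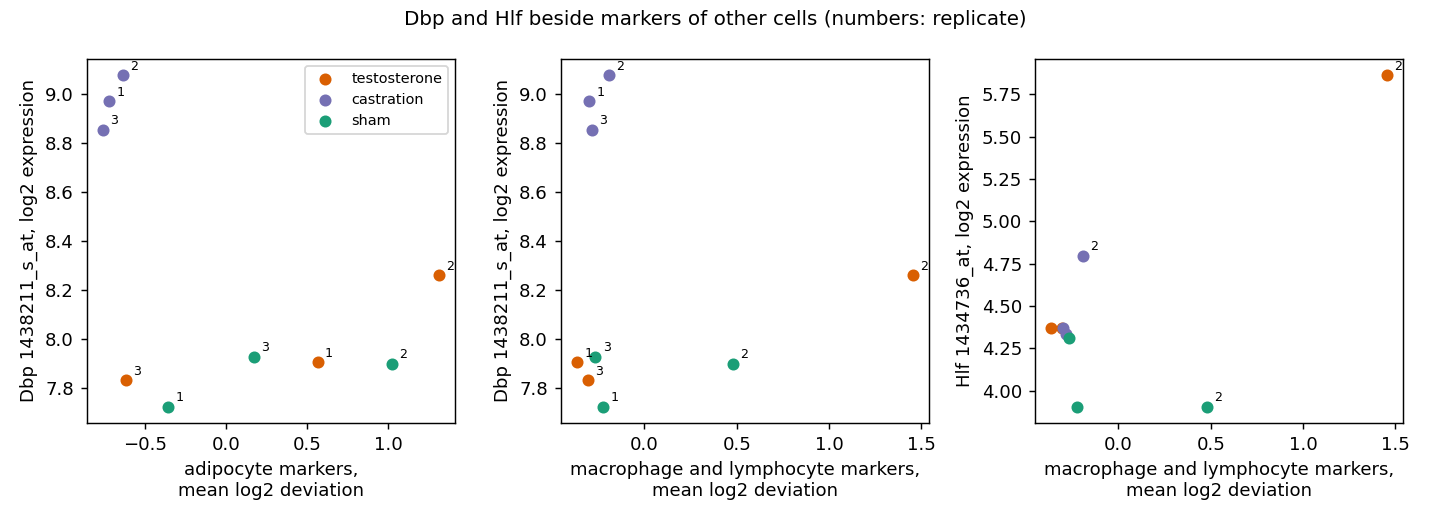
Left and middle, Dbp (brighter probe set, log2 expression) against the mean log2 deviation of adipocyte markers and of macrophage and lymphocyte markers. Right, Hlf (brighter probe set) against the macrophage and lymphocyte markers. Points are arrays coloured by group (testosterone, castration, sham). The castration arrays have the highest Dbp levels (8.85 to 9.08) and the lowest adipocyte scores (−0.75 to −0.64), and testosterone 2 is highest in both Hlf (5.86) and the macrophage and lymphocyte score (1.45).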

How the data were processed

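The deposited table holds log2 expression values. The submitters' processing notes name RMA as the authors' method, without a version. RMA corrects background, quantile-normalises arrays together and summarises probes, which is meant to remove a shift common to an array. In the deposited values the array medians still ran from 3.15 on castration 2 to 3.26 on sham 2. Renewed quantile normalisation changed several differences, as given below. Per the labels' protocols, 4 µg of RNA from each of 3 animals were pooled per array, so 27 of 36 mice were measured. The table held 45101 probe sets, of which 64 controls were left out. The platform annotation pairs 34945 with 1 gene and 932 with several and leaves 9160 unlisted. Symbols were updated by gene identifier, and 204 probe sets without a match kept theirs. A gene's main probe set is the one with the highest mean among those annotated to it alone, giving 18193 genes. No 2 arrays shared more than 5.78% of identical values, and their correlations ran from 0.967 to 0.995. Arrays have no read depth, and 3 per group limit the precision.

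All 9 arrays entered 1 model with group as its only term (limma 3.58.1, R 4.3.3, functions lmFit and eBayes), and p-values, two-sided, were adjusted by Benjamini-Hochberg over 45037 probe sets with a threshold of 0.05. The members and gene lists were chosen with earlier results of these data known. All member probe sets are reported, up to 4 genes with the smallest p per list are named, and genes like Dbp are the 6 highest and lowest Pearson correlations over main probe sets, without predicted or clone names. The fit was tested on simulated data. Marker counts without sham 2 were added after the data were seen. Alternatives were a replicate block, only the 2 groups compared, 1 probe set per gene, and genes averaged over their probe sets. Others left out dim probe sets, or probe sets with names ending in _x_at or _s_at. Further ones were array weights, a variance trend with intensity, robust or unmoderated variances, median centring, and quantile normalisation applied again. Arrays were also left out singly or as the pair sham 2 and testosterone 2. A p-value here sets a difference between group means against the spread between pools of the same group.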

Additional observations from a re-analysis of the deposited data

How the results depend on the processing

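Over 13 alternative settings, the Dbp difference stayed between 1.00 and 1.18 for castration minus sham and between −1.25 and −0.96 for testosterone minus castration. The lowest castration value, 1.00, came from renewed quantile normalisation. Leaving out probe sets with names ending in _x_at or _s_at puts the other Dbp set in its place. This gave −1.25 for testosterone minus castration and −0.12 for testosterone minus sham, against 0.15. Leaving out 1 array gave 1.05 to 1.17, −1.10 to −0.88 and 0.02 to 0.23 for the 3 comparisons. The number of member genes not overlapping was 4 to 5 for castration against sham and 2 to 3 for testosterone against castration when 1 array was left out. Over the 13 alternative settings these numbers were 3 to 5 and 2 to 3.

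For testosterone against sham, 0 of the 5 other member genes passed in any setting. At an unadjusted p under 0.05 there were 0, but 1 with the replicate block and 1 with an intensity trend, and 0 to 1 leaving out 1 array. Bhlhe41 turned to −0.0033 (adjusted p = 0.995, limma) as the mean of its probe sets, and ran from −0.0065 to 0.19 leaving out 1 array. Bhlhe40 ran from −0.028, without testosterone 1, to 0.20, and was 0.04 without sham 2. Nfil3 was 0.06 with renewed quantile normalisation, against 0.25. For castration minus sham, renewed quantile normalisation gave −0.38 for Nfil3, 0.11 for Tef and 0.29 for Cebpb, and averaging over probe sets gave 0.29 for Nr1d2. Csnk1d turned to 0.088 as the mean of its probe sets, for castration minus sham. In that comparison Tbc1d1 turned to 0.16 on the probe set used without those named _x_at or _s_at.

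Correlations of same-numbered deviations ran from −0.47 to 0.31. With 3 arrays per group they do not settle whether the replicate numbers paired the arrays. With the replicate block, list genes at an unadjusted p under 0.05 for testosterone against sham went to 0 against 2 without it. That count was also 0 in fits of the 2 groups only, 1 with 1 probe set per gene, 1 without dim probe sets, 1 with unmoderated variances, and between 0 and 6 when 1 array was left out, the 6 being without sham 3. For testosterone against castration it was 4 with unmoderated variances and 12 without sham 2 and testosterone 2, against 7, and 3 to 9 leaving out 1 array. For castration against sham it was 3 to 10 leaving out 1 array. The 1 list gene that passed adjustment in some settings was Per3. It passed for castration against sham with array weights and without sham 2 and testosterone 2, and for testosterone against castration in these, with renewed quantile normalisation and without sham 2, which makes a count of 0 to 1.

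Over all features, where 0 passed, adjusted counts for castration against sham were 2 with genes averaged over their probe sets, 1 with renewed quantile normalisation, 3 with an intensity trend, 2 unmoderated, 32 with array weights, 15 without sham 2 and testosterone 2, and 0 to 2 leaving out 1 array. For testosterone against castration these were 2, 16, 7, 1, 42 and 20, and between 0 and 17 when 1 array was left out, the 17 being without sham 2. For testosterone against sham 1 passed unmoderated. The share at an unadjusted p under 0.05 was 9.77%, 5.44% and 7.83% with array weights for castration against sham, testosterone against castration and testosterone against sham. It was 2.62% for testosterone against sham in the fit of these groups only, and 4.55% for testosterone against castration without sham 2 and testosterone 2. Leaving out 1 array it ran from 2.46% to 10.6%, 1.94% to 4.84% and 3.15% to 12.6%, with both highest values above 10% coming without sham 3. Of the 12 genes named as most like or opposite to Dbp, 3 were shared under Spearman correlation and 3 without the array pair. The cause of these changes was not tested.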

Other observations

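Related factor families outside the clock output group gave these values. Of 5 measured C/EBP family genes, bZIP factors that bind related sites, 3 were higher and 2 lower after castration than in sham. With testosterone, 5 of 5 were higher than in sham (median 0.25, against 0.01 over all genes). None of the 5 passed the adjusted limma test. The shared direction rested in part on sham 2 and testosterone 2. Cebpa read 5.66 on testosterone 2 and 4.27 on the other testosterone arrays, against 4.31, 5.05 and 4.31 in sham. Ddit3 read 5.12 on sham 2 and 6.40 and 6.10 on the other sham arrays, against 5.86 to 6.26 with testosterone. Sham 2 was also the lowest sham array for Cebpb, Cebpd and Cebpg. Cebpb, a stress and glucocorticoid responsive member, was 0.47 (SE 0.17) higher after castration than in sham. Cebpg was 0.52 (SE 0.19) higher with testosterone than after castration, and Cebpd was 0.69 (SE 0.28) higher with testosterone than in sham, or 0.44 without sham 2 and 0.35 averaged over its probe sets. Of 5 measured Hes and Hey repressors, relatives of the BHLHE proteins, 0 were higher and 5 lower with testosterone than after castration (median −0.05), and none was past an unadjusted p of 0.05 in any comparison.

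Among 10 genes with daily rhythms or clock control reported in muscle, 5 were higher and 5 lower after castration than in sham, with a median of 0.01 and 0 passing the adjusted limma test. Tbc1d1, a regulator of glucose transporter traffic, read 6.21, 6.71 and 6.55 with testosterone, 5.79, 5.92 and 5.85 after castration, and 6.86, 6.01 and 6.58 in sham. Castration minus sham was −0.63 (SE 0.21) and testosterone minus castration 0.63 (SE 0.21), with castration below every other array. On the probe set used after those named _x_at or _s_at were removed these were 0.16 and 0.14. Averaged over all its probe sets they were −0.16 and 0.21.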
